A study of Mus musculus with 18 samples.

Results

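The genes described here are 39 mouse genes of the collagens, laminins and fibrous extracellular matrix, of 26301 genes in the count table. They were chosen by symbol, and all 39 matched an Entrez row of the table and passed the filter on low counts. By role they are 7 fibrillar collagen chains, 6 chains of other interstitial collagens, 13 basement membrane genes, 5 genes of microfibrils, fibulins and fibronectin, 5 small proteoglycans and small matrix proteins, and 3 lysyl oxidases. Fibrillar collagens assemble outside the cell into the fibres of connective tissue and are made in large amounts by fibroblasts. Basement membranes are thin sheets of laminin, type IV collagen, nidogen and the proteoglycan perlecan. In the brain they surround blood vessels and line the inner face of the meninges, where the endfeet of astrocytes rest on them. Fibronectin and the fibrillins form fibrils that organise other matrix proteins, and the lysyl oxidases cross-link collagen and elastin.

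RNA was sequenced from cortical astrocytes of newborn mice, grown in serum medium to confluence and then kept in N2 medium. Co-cultures had hippocampal neurons from newborn TdTomato-positive mice plated on the astrocytes, and the other cultures held astrocytes alone. Cells were collected at day 2, 4 and 7 and sorted by TdTomato fluorescence, with the astrocytes alone used to set the negative gate, and there were 3 libraries in each of the 6 groups. The labels give no strain or genotype of the astrocytes, and do not say whether replicates came from separate litters, so a p-value here sets differences against the spread of these 3 libraries a group, which may be technical. The labels give the same date to all libraries of one replicate number.

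Libraries held 3242459 to 32623556 reads assigned to genes, and matrix genes took 0.341% to 0.933% of the reads in 16 of them. The other 2 stood apart. Replicate 1 of astrocytes alone at day 2 had 92.5% of its 3242459 reads on 1 gene, so 1 read was worth 6.72 CPM (counts per 1e6 scaled reads) and 3 reads 20.2 CPM. Replicate 1 of the day 7 co-culture had 40.5% of its 8966485 reads on the mitochondrial ribosomal RNA mt-Rnr2, and is called the mitochondria-rich library. The counts and medians below are therefore given with all 18 libraries and, where they rest on either of these, with the 16 others. Gfap, an astrocyte filament gene, was at 67.6 CPM or more in each of the 16 libraries. The 10 neuron markers summed to 41.0 to 276.5 CPM in the co-cultures and 55.0 to 306.2 CPM in astrocytes alone, again over the 16 libraries. Of 16 fibroblast and meningeal markers, summing to 197.4 to 510.8 CPM and led by Ogn, Tcf21 had no read in any of the 18 libraries. The 10 endothelial markers summed to 4.01 to 16.4 CPM, with Cldn5 at 0, and the 11 mural markers to 261 to 1618 CPM, led by Acta2, with Kcnj8 at 0.

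The matrix RNA of these cultures was led by basement membrane genes and Col5a2, 1 of the chains of type V collagen. Levels of different genes were compared as CPM per kilobase of exon, with the length taken over all annotated exons of a gene. This length can exceed that of the main transcript, so the scale is approximate. On it the highest medians over 16 libraries were 64.1 for Col18a1, the collagen of basement membranes that yields endostatin, 61.9 for Col5a2 and 60.9 for Lamb2, the laminin beta 2 chain. Col4a5 followed at 46.5, Col4a1 at 41.4, Hspg2, which encodes perlecan, at 39.02, Nid2 at 37.6 and Fn1, fibronectin, at 35.7. Below them came Col8a1, a network-forming collagen, at 34.0, the laminin gamma chain Lamc1 at 30.8, Col4a2 at 21.2, Loxl2 at 15.6 and Col12a1 at 12.9. The 3 chains that make up most of the collagen of connective tissue were far lower on that scale, with medians of 3.04 for Col1a2, 1.94 for Col1a1 and 1.71 for Col3a1. The 18 members not named here lay between 0.12 (Col6a2) and 12 (Loxl1). The lowest were Col15a1 at 0.030, Col6a3 at 0.044, Lum at 0.077, Postn at 0.096 and Mgp at 0.10, of which Mgp had 100 reads over all 18 libraries. Related chains were unequal in the same direction in every one of the 16 libraries for several pairs. Per kilobase, Lamb2 stood above its relative Lamb1 by a median of 47.9 times (30.0 to 216.4), Nid2 above Nid1 by 28.6 times (5.198 to 85.6) and the fibrillin Fbn1 above Fbn2 by 13.4 times (6.85 to 89.7). Col5a2 stood above Col5a1 by 4.83 times (2.02 to 9.65), and above Col1a2 by 16.9 times (4.61 to 38.1). Col1a2 against Col1a1, which form 1 trimer at a fixed ratio of chains, had a median ratio of 1.86. It ran from 0.68 to 12.7 and lay above 1 in 12 of 16 libraries. These values rest on exon lengths of 12.43 kb for Col1a2 and 6.56 kb for Col1a1, and in CPM Col1a2 was higher in each of these libraries.

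**Figure D1:**
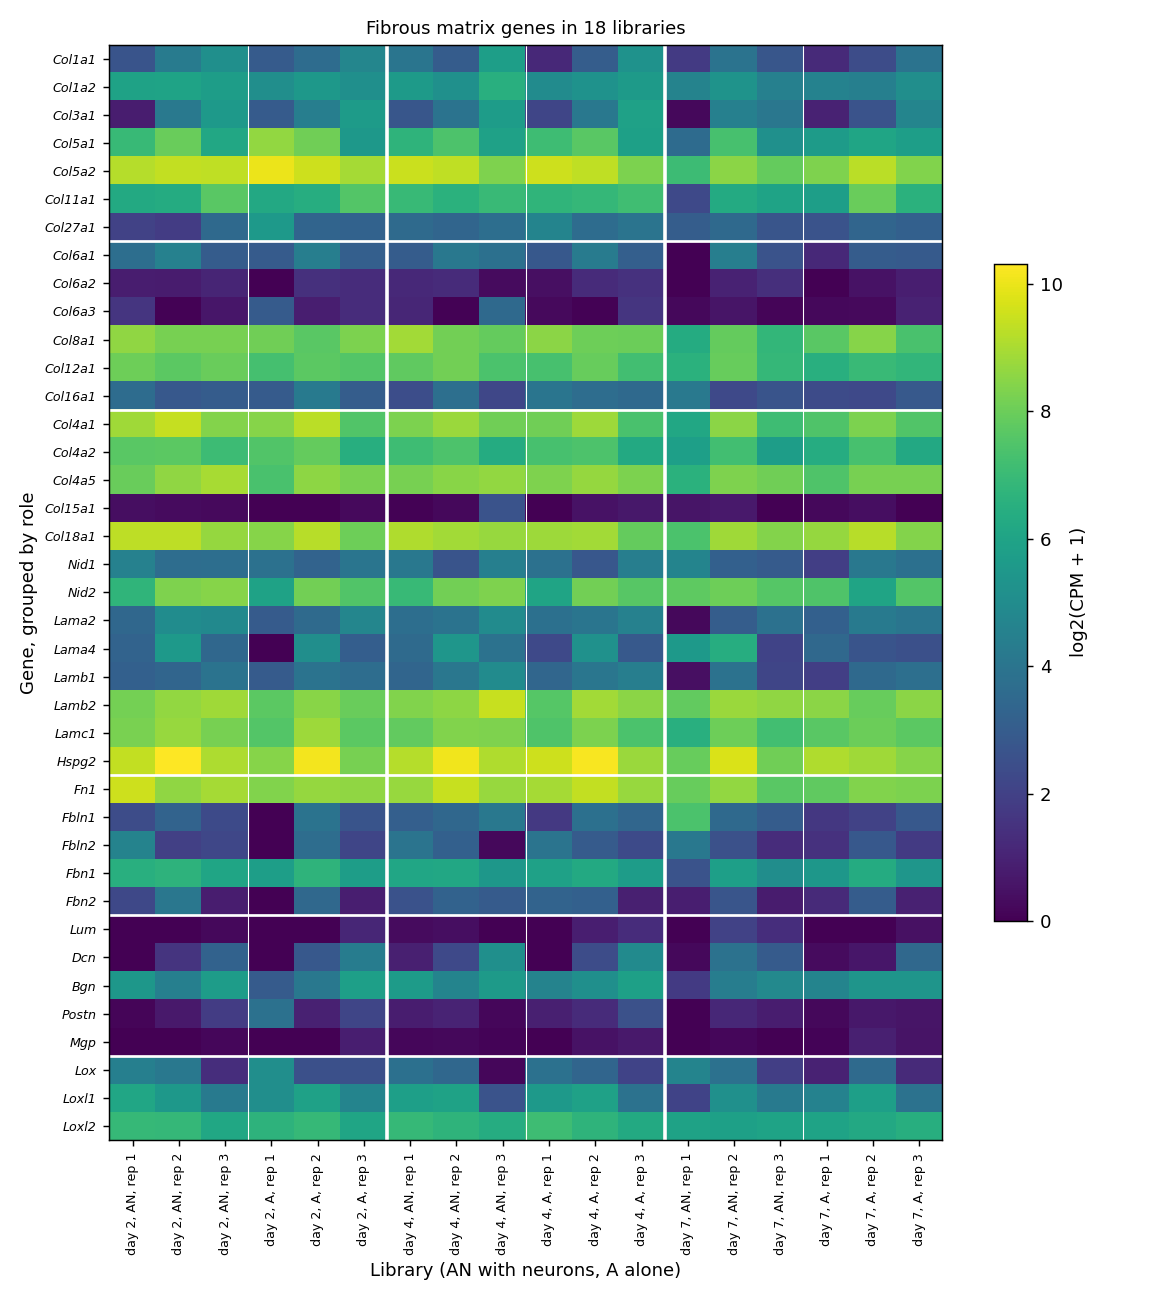
Level of each of the 39 matrix genes in each of the 18 libraries as log2(CPM + 1), with genes grouped by role and libraries by day, co-cultures (AN) left of astrocytes alone (A). Hspg2, Col5a2, Col18a1, Fn1 and Lamb2 are bright in nearly all libraries, while Col15a1, Lum, Postn and Mgp stay dark; levels here are not divided by gene length.

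From day 2 to day 7 most matrix genes were fitted lower in both kinds of culture, though edgeR called none of them. In co-cultures 29 of 39 members were fitted lower at day 7 than at day 2, against 48.8% of all genes tested, and the median log2 fold change was -0.77, with 0.03 over all 16539 genes. In astrocytes alone 33 of 39 were fitted lower, against 49% of all genes, with a median of -0.61 and 0.01 over all genes. In the 16 libraries the counts were 30 (48.6% of all genes) and 34 (47.7%), with medians of -0.69 and -0.55. The tests of edgeR (quasi-likelihood, Benjamini-Hochberg adjusted p under 0.05) called 0 members and 0 genes (0%) in either comparison. At an unadjusted p under 0.05 there were 2181 genes in co-cultures and 183 in astrocytes alone, and 1068 and 283 in the 16 libraries. Single libraries moved these counts: that of co-cultures was 966 without the mitochondria-rich library and 3591 without replicate 2 of the same group, and that of astrocytes alone was 104 without replicate 3 at day 7 and 662 without replicate 3 at day 2. DESeq2, with all 18 libraries, called 242 and 3 genes, and its 1 called member was Fbln1, higher at day 7 in co-cultures (adjusted p = 0.0193), whose highest value came from the mitochondria-rich library. With the replicate number in the model edgeR called 1 gene in co-cultures and 0 in astrocytes alone. In the 16 libraries that model called 17 genes in each, and no member was called in either setting. In RNA from a pool of sorted cells, fewer cells of a type and less RNA per cell cannot be told apart.

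More markers of fibroblasts, mural cells and endothelial cells were fitted lower than higher at day 7, and edgeR called none of them. Of all genes tested, 48.8% were fitted lower in co-cultures and 49% in astrocytes alone. Of 11 fibroblast and meningeal markers tested, 7 were lower in co-cultures (median log2 fold change -0.48) and 8 in astrocytes alone (-0.61). Of 8 mural markers, 5 were lower in co-cultures (-0.76) and 7 in astrocytes alone (-0.64), and of 7 endothelial markers 4 (-0.37) and 6 (-1.64). In the 16 libraries, with the replicate number in the model, the fibroblast and meningeal medians were -0.10 and -0.15. The mural ones were -0.56 and -0.31, and the endothelial ones -0.03 and -1.28. In that model 7 and 6 of 11 fibroblast and meningeal markers were lower, 7 and 8 of 8 mural and 4 and 5 of 7 endothelial markers. Of all genes, 45.2% and 46.8% were lower in it. Of 12 astrocyte markers, 4 were lower in co-cultures (median 0.26) and 3 in astrocytes alone (0.19). In the 16-library model 2 and 6 of 13 astrocyte markers were lower (0.22 and 0.33). Of 6 oligodendrocyte lineage markers, 4 were lower in co-cultures (-0.61) and 4 in astrocytes alone (-0.23). In the 16-library model 3 of 7 were lower in each (0.02 and 0.29). The part of any of these cell types in the lower level of matrix genes was not tested.

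Members lower at an unadjusted p under 0.05 were 10 of 39 in co-cultures (25.6%, against 3.17% of all genes) and 3 of 39 in astrocytes alone (7.69%, against 0.695%). In the 16 libraries they were 6 (15.4%, against 2.62% of all genes) and 2 (5.13%, against 0.819%). The 10 came from several roles: the collagen chains Col1a2, Col5a2, Col8a1, Col4a1 and Col4a2, the laminin chains Lama2 and Lamc1, and Fn1, Fbn1 and the lysyl oxidase Loxl2. The 3 were Col5a1, Col12a1 and Postn. For Col5a1 and Postn the highest day 2 value was that of replicate 1, which stood apart, at 396.7 CPM from 59 reads and 13.45 CPM from 2 reads. Replicates 2 and 3 at day 2 had 271.4 and 44.8 CPM of Col5a1, and 0.954 and 3.45 CPM of Postn. In replicate 3 Col5a1 was higher at day 7, at 54.3 CPM.

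Col1a2, the second chain of type I collagen, had 59.8, 62.5 and 52.1 CPM in co-cultures at day 2, 48.1, 35.3 and 89.8 CPM at day 4, and 23.5, 37.9 and 21.2 CPM at day 7. In astrocytes alone it had 33.6 (from 5 reads), 44.2 and 33.9 CPM at day 2, 30.8, 37.6 and 47.9 CPM at day 4, and 22.9, 20.7 and 33.2 CPM at day 7. All day 7 libraries lay below all day 2 libraries in both kinds of culture, and day 4 overlapped day 2. In astrocytes alone the place of the day 2 library with 5 reads is undetermined, as 1 read there is worth 6.72 CPM. The log2 fold change of day 7 over day 2 was -1.08 (SE 0.37, adjusted p = 0.278 by edgeR) in co-cultures and -0.57 (SE 0.38, adjusted p = 1) in astrocytes alone.

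Fbn1, the main fibrillin of these cultures, had 5.21, 55.8 and 32.2 CPM in day 7 co-cultures, against 88.9, 100.2 and 65.3 CPM at day 2. These groups did not overlap, and the lowest value was that of the mitochondria-rich library. Fbn1 had a log2 fold change of -1.44 (SE 0.54, adjusted p = 0.300 by edgeR), and -0.95 (SE 0.40) in the 16 libraries. Col5a2, which with Col5a1 makes the type V collagen that sets fibre width, had 133, 362.4 and 235.2 CPM in day 7 co-cultures, against 578.6, 652.9 and 640.6 CPM at day 2. Its groups did not overlap either (log2 fold change -1.36, SE 0.45, adjusted p = 0.277 by edgeR; -1.06, SE 0.44, in the 16 libraries). Col12a1, a fibre-associated collagen, separated by day in astrocytes alone, with 90.7, 124.7 and 109.8 CPM at day 7 against 154.6, 209.6 and 185.3 CPM at day 2 (log2 fold change -0.77, SE 0.35, adjusted p = 1). Fn1, fibronectin, also separated by day in astrocytes alone, with 220.2, 324.9 and 306.1 CPM at day 7 against 329.4, 413 and 389.6 CPM at day 2. The 329.4 CPM came from 49 reads, and lay less than 1 read above 324.9 CPM. In co-cultures Fn1 overlapped between the days, through replicate 2 with 392.9 CPM at day 7, and the 2 other replicates had 238 and 201.9 CPM at day 7 against 737.1 and 478.3 CPM at day 2 (log2 fold change -0.95, SE 0.35, adjusted p = 0.299 by edgeR). In co-cultures Col12a1 overlapped between the days, since replicate 2 had 238.6 CPM at day 7.

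Counting members whose day 7 libraries all lay below their day 2 libraries gave 6 in co-cultures (15.4%, against 5.42% of all genes) and 5 in astrocytes alone (12.8%, against 2.58%). In the 16 libraries, where 1 group of each comparison has 2 libraries, it gave 8 in each (20.5%, against 8.28% and 7.96% of all genes). With all libraries these were, in co-cultures, Col1a2, Col5a2, Col8a1, Lamc1, Fbn1 and Loxl2. In astrocytes alone they were Col1a2, Col12a1, Col16a1, Fn1 and Postn. Replicate 1 of astrocytes alone at day 2 had 1 read of Col16a1, 2 of Postn and 5 of Col1a2, so its own place is undetermined for these. For Fn1, with 49 reads, it lay less than 1 read above day 7. Without that library these genes still separated. The nearest values of day 2 and day 7 were then 7.266 and 6.394 CPM for Col16a1, and 0.9537 and 0.5883 CPM for Postn. They were 33.9 and 33.2 CPM for Col1a2, and 389.6 and 324.9 CPM for Fn1. Within replicate numbers, the median log2 difference of the 39 members between day 7 and day 2 was -1.46, -0.27 and -1.02 for replicates 1, 2 and 3 of the co-cultures, with -0.32, 0.15 and -0.01 over all genes. For astrocytes alone it was -0.46, -0.59 and -0.35, with 0.78, 0.008 and -0.05 over all genes. All 6 member medians were negative and below those of all genes. From day 4 to day 7 the member medians were -1.67, -0.21 and -0.98 in co-cultures, with -0.59, 0.006 and 0.06 over all genes, and -0.84, -0.50 and -0.48 in astrocytes alone, with -0.02, -0.03 and -0.004. From day 2 to day 4 they were 0.18, -0.10 and -0.09 in co-cultures, with 0.04, 0.13 and -0.12 over all genes, and 0.009, -0.13 and 0.13 in astrocytes alone, with 0.71, 0.04 and 0.003. The values over all genes were farthest from 0 in the replicate 1 pairs that contain 1 of the 2 libraries that stood apart, and in replicate 1 of astrocytes alone the members were below all genes in both intervals.

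By role, the median log2 fold change of day 7 over day 2 in co-cultures was -1.10 for fibrillar collagens (6 of 7 lower), -0.67 for other interstitial collagens (4 of 6), -0.79 for basement membrane genes (11 of 13) and -0.95 for microfibrils, fibulins and fibronectin (4 of 5). In astrocytes alone the same roles gave -1.11 (6 of 7), -1.32 (6 of 6), -0.34 (10 of 13) and -0.61 (5 of 5). The small proteoglycans did not follow a common direction, with 2 of 5 lower in co-cultures and 3 of 5 lower in astrocytes alone. Over the 16 libraries the first 4 roles had medians of -0.77, -0.63, -0.49 and -0.95 in co-cultures, and -0.55, -1.28, -0.52 and -0.80 in astrocytes alone. The difference between the 2 time courses was tested directly, and edgeR called 0 members and 0 genes (0%). At an unadjusted p under 0.05 there were 905 genes, and 554 in the 16 libraries. The count was 561 without the mitochondria-rich library and 1755 when replicate 2 of its group was dropped. DESeq2 called 3 genes. With the replicate number in the model edgeR called 0 genes, and 23 in the 16 libraries, none of them a member.

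**Figure D2:**
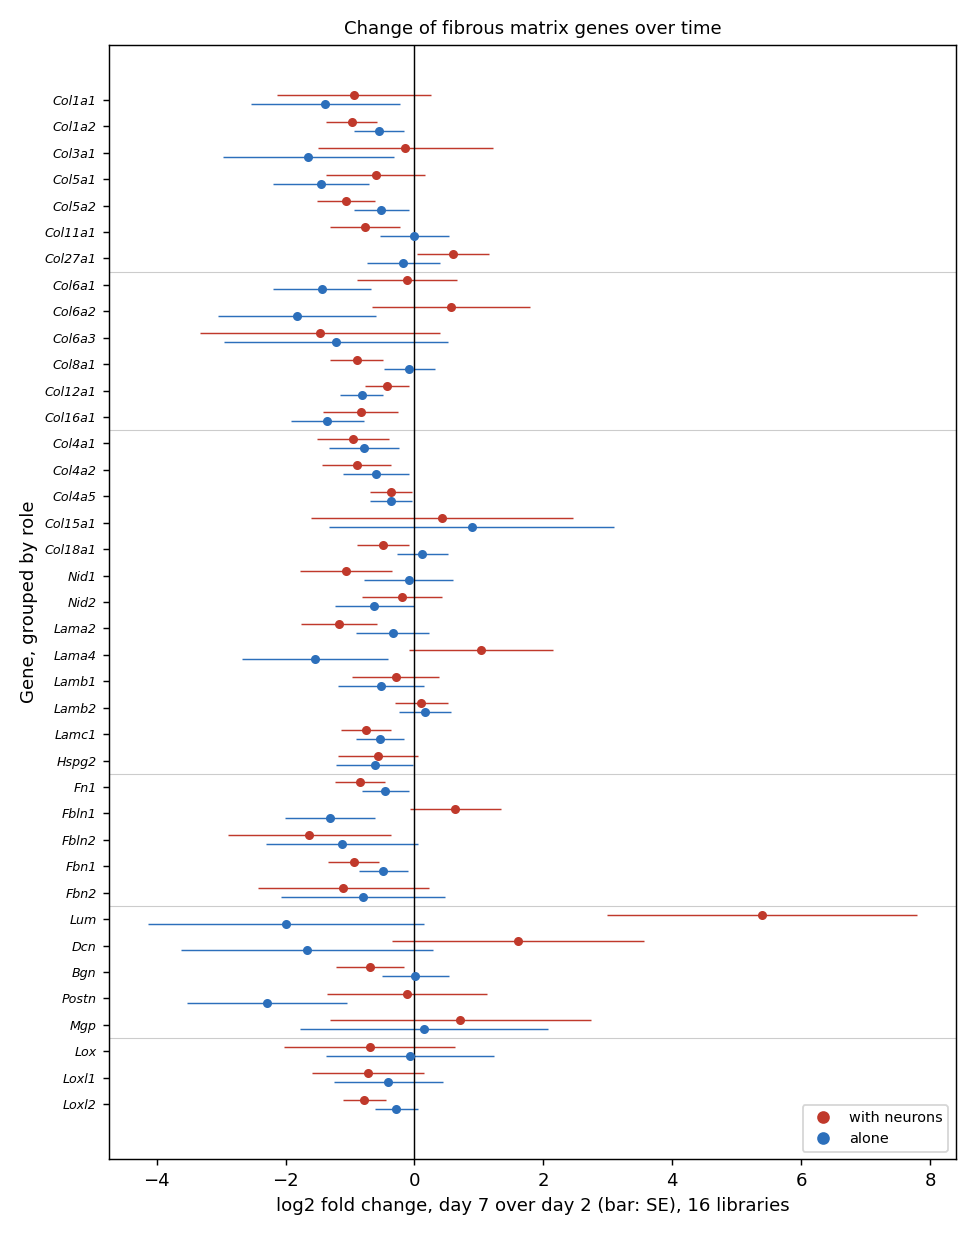
Log2 fold change of day 7 over day 2 for each of the 39 matrix genes, fitted by edgeR to 16 libraries, with bars of 1 SE; red points are co-cultures with neurons and blue points astrocytes alone. Of the points, 30 of 39 lie left of 0 in co-cultures and 34 of 39 in astrocytes alone, and the widest bars belong to genes with few reads such as Lum.

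In co-cultures against astrocytes alone edgeR called no matrix gene at any day. It called 0 members and 0 genes (0%) at day 2, at day 4, at day 7 and for the average over days, with 388, 61, 1549 and 689 genes at an unadjusted p under 0.05, and 521, 150, 266 and 472 in the 16 libraries. The day 7 count rested on single libraries, with 244 without the mitochondria-rich library and 2865 without replicate 2 of the same group. With 1 library left out the day 2 count ran from 338 (without replicate 1 of astrocytes alone at day 2) to 1018 (co-culture replicate 3 of day 2 dropped). The day 4 count ran from 27 (without replicate 1 of astrocytes alone at day 4) to 265 (co-culture replicate 2 of day 4 dropped), and that for the average from 507 (without replicate 1 of astrocytes alone at day 4) to 1489 (co-culture replicate 2 of day 7 dropped). DESeq2, with all 18 libraries, called 22, 0, 5 and 0 genes, of which 1 was a member, Fbln1 at day 7. With the replicate number in the model edgeR called 0, 0, 1 and 0 genes. In the 16 libraries that model called 16, 0, 18 and 0, and no member was called in either setting. The median log2 fold change of the 39 members was 0.24 at day 2, 0.10 at day 4 and 0.06 at day 7, with 26, 22 and 21 of 39 fitted higher, against 53.3%, 48.6% and 50.2% of all genes. Over the 16 libraries these medians were 0.10, 0.09 and 0.06, with 25, 22 and 22 of 39 fitted higher, against 49%, 46.5% and 49.4% of all genes. The pairs of libraries of replicates 1, 2 and 3 differed in sign. At day 2 the member medians were 0.64, -0.06 and 0.15, with 0.63, -0.04 and -0.01 over all genes. At day 4 they were 0.27, -0.05 and 0.11, with 0.03, -0.02 and -0.15 over all genes. At day 7 they were -0.62, 0.27 and -0.46, with -0.64, 0.02 and 0.07 over all genes. The members of replicate 1 thus lay at the level of all genes at day 2 and day 7, where its pairs contain the libraries that stood apart.

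The role with the most even direction was the basement membrane at the earlier days. At day 2, 12 of its 13 genes were fitted higher in co-cultures (median log2 fold change 0.41, and 0.23 in the 16 libraries), at day 4 11 of 13 (0.29, and 0.28 in the 16) and at day 7 6 of 13 (-0.16). The day 7 median changed sign in the 16 libraries, with 7 of 13 higher (0.145). Within pairs the direction differed between replicate numbers. In replicate 1 all 13 were higher at day 2, where the median over all genes was 0.63, and 8 of 13 at day 4. In replicate 2 there were 10 of 13 higher at day 2 and 5 of 13 at day 4. In replicate 3 all but Nid1 were higher at day 2, and all were higher at day 4. Their summed level at day 2 was 2929, 4404 and 3082 CPM in co-cultures, against 1869, 4056 and 1816 CPM in astrocytes alone, and the groups overlapped. At day 4 it was 2576, 3566 and 3150 CPM in co-cultures, against 2403, 3816 and 2025 CPM in astrocytes alone. At day 7 it was 1228, 3184 and 1811 CPM in co-cultures, against 2160, 2415 and 2046 CPM in astrocytes alone. The spread between replicates was wider than the difference between the kinds of culture at each day.

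Members whose 3 co-culture libraries all lay above the 3 libraries of astrocytes alone were Col1a2 and Col15a1 at day 2 (5.13%, against 3.26% of all genes), 0 at day 4 (2.05%), and Nid2 and Fbln1 at day 7 (5.13%, against 4.29%). Those lying below were 0 at day 2 (2.27% of all genes), 0 at day 4 (3.92%) and Loxl2 at day 7 (2.56%, against 5.58%). The place of Col15a1 at day 2 is undetermined with all libraries, since it had no read in replicate 1 of astrocytes alone, where 1 read is worth 6.72 CPM, and it had 0 to 11 reads in the other 5 day 2 libraries. In the 16 libraries Col1a2 and Col15a1 lay above at day 2 (5.13%, against 4.69% of all genes) and Col6a2 below (2.56%, against 7.46%). At day 7 Col6a2, Nid2, Lamb2, Fbln1, Lum and Postn lay above in the 16 libraries (15.4%, against 9.37%) and Loxl2 below (2.56%, against 8.57%). The values of Col1a2 at day 2, given above, correspond to a log2 fold change of 0.62 (SE 0.38, adjusted p = 1 by edgeR), with 0.57 (SE 0.36) at day 4 and overlapping groups there. Nid2, a nidogen that links laminin to type IV collagen, had 212.3, 260.2 and 191.7 CPM in day 7 co-cultures, against 177.9, 64.0 and 187.4 CPM in astrocytes alone. Loxl2, a lysyl oxidase, had 60.0, 56.4 and 62.7 CPM in day 7 co-cultures, against 63.0, 74.1 and 86.2 CPM in astrocytes alone. For both Nid2 and Loxl2 the gap between the nearest libraries of the 2 groups was small beside the range within either group. For Loxl2 these were 62.7 CPM in a co-culture and 63.0 CPM in astrocytes alone.

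At day 7, 2 members were higher in co-cultures at an unadjusted p under 0.05 (5.13%, against 8.1% of all genes), each through 1 or 2 libraries. With the 16 libraries it was 1 member, Lama4 (2.56%, against 0.521% of all genes). Fbln1, a fibulin of elastic fibres and basement membranes, had 167.9, 10.5 and 6.90 CPM in day 7 co-cultures, against 2.21, 3.05 and 6.16 CPM in astrocytes alone. The value of 167.9 CPM, from 999 reads, belonged to the mitochondria-rich library. The log2 fold change was 4.01 (SE 1.03, adjusted p = 0.468 by edgeR) with all libraries and 1.12 (SE 0.70, adjusted p = 1) in the 16. DESeq2 called Fbln1 at day 7 (adjusted p = 0.0334) with that library included. Lama4, the laminin chain of vessel walls, had 45.1, 85.4 and 3.26 CPM in day 7 co-cultures, against 10.2, 5.35 and 4.80 CPM in astrocytes alone (log2 fold change 2.72, SE 1.06, adjusted p = 0.468 by edgeR; 2.68, SE 1.15, adjusted p = 1 in the 16 libraries). Replicate 3 of the co-culture was the lowest of the 6 libraries, so the groups overlapped. Lum, a small proteoglycan of collagen fibres, had 0, 3.07 and 1.57 CPM in day 7 co-cultures, or 124 reads at most, against 0, 0 and 0.361 CPM in astrocytes alone.

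**Figure D3:**
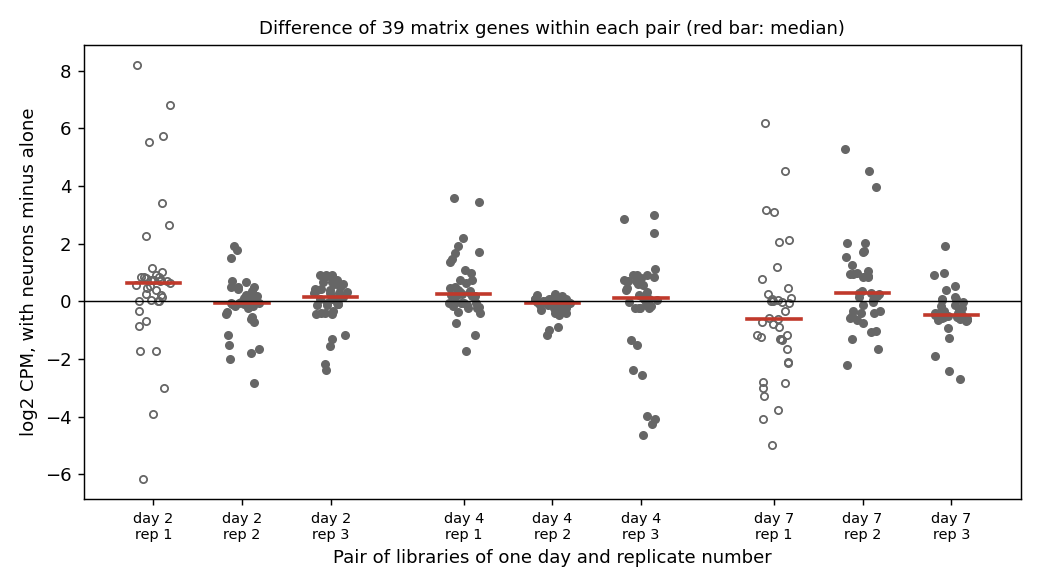
Log2 difference (prior count 2) of co-culture minus astrocytes alone for each of the 39 matrix genes within each pair of libraries of one day and replicate number, with the median of the pair in red; open circles mark pairs that contain 1 of the 2 libraries that stood apart. Medians run from -0.62 to 0.64 and change sign between replicate numbers at every day; both ends are replicate 1 pairs with a library that stood apart, in which the median over all genes was -0.64 and 0.63.

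Several matrix genes differed between replicate numbers. A test of any difference between the 3 replicate numbers, added to the 6 group means, called 11 of 39 members (28.2%, against 5.76% of 16539 genes) and, in the 16 libraries, 15 of 39 (38.5%, against 8.93% of 17092). A replicate number stands for a date in the labels, and what else differed between the dates is not given. With each of the 18 libraries left out in turn, 6 members were called each time: Col1a1, Col3a1, Col4a1, Col4a2, Hspg2 and Dcn. The count was 6 without replicate 2 or 3 of the day 2 co-culture or replicate 3 of astrocytes alone at day 2. It was 7 without replicate 1 of the day 2 co-culture, replicate 2 of the day 4 or day 7 co-culture, replicate 2 of astrocytes alone at day 2 or day 4, or replicate 3 of astrocytes alone at day 4. It was 16 without the mitochondria-rich library. Without replicate 2 altogether it was 3 (Col1a1, Col3a1 and Dcn), and without replicate 3 it was 0.

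Among the called members 2 patterns were seen, which Lox did not follow. Col1a1, Col3a1 and Dcn, the decorin that coats collagen fibres, were lowest in replicate 1 and highest in replicate 3. Col3a1 had 0.775 to 5.74 CPM (median 2.20) in the 4 typical libraries of replicate 1, 5.30 to 21.7 CPM (median 16.8) in the 6 of replicate 2 and 15.8 to 58.7 CPM (median 47.1) in the 6 of replicate 3. The log2 difference of replicate 3 over replicate 1 was 4.07 and the adjusted p was 0.000221 by edgeR (0.000433 with all 18 libraries). Col1a1 had medians of 3.34, 9.33 and 29.6 CPM in replicates 1, 2 and 3 (replicate 3 over replicate 1 2.80, adjusted p = 0.0127 by edgeR, 0.00968 with all 18). Dcn was at 0.883 CPM or less in the 4 libraries of replicate 1, of which 2 had no read, at 0.535 to 13.9 CPM in replicate 2 and at 6.86 to 34.6 CPM in replicate 3 (adjusted p = 0.00156 by edgeR, 0.00138 with all 18). Replicate 3 lay wholly above replicate 1 for Col3a1 and Dcn, and the ranges of Col1a1 overlapped.

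The second pattern was a peak in replicate 2. Hspg2, perlecan, had medians of 614.1, 1101 and 393 CPM in replicates 1, 2 and 3 (replicate 3 over replicate 2 -1.28, adjusted p = 0.00284 by edgeR in the 16 libraries, 0.00497 with all 18). Col4a1 had medians of 290.7, 435.5 and 179.8 CPM, and Lama4, called in 9 of the 18 leave-outs, of 9.53, 39.1 and 6.93 CPM. Col5a1, the partner chain of Col5a2, had medians of 112.3, 188 and 55.4 CPM (replicate 3 over replicate 2 -1.70, adjusted p = 0.00143 by edgeR in the 16 libraries). Its call was less stable, with an adjusted p of 0.0498 by edgeR with all 18 libraries and a call in 4 of the 18 leave-outs. For Col5a1, replicate 2 overlapped replicate 3 in part, as its day 7 library of astrocytes alone was at 65.7 CPM against a highest value of 70.7 CPM in replicate 3. Hspg2, Col4a1 and Lama4 overlapped too, with lowest values of 456, 306.7 and 5.35 CPM in replicate 2. Their highest values were 733.1, 454.3 and 10.95 CPM in replicate 1, and 548.9, 338.4 and 13.78 CPM in replicate 3. The fibrillar chains Col3a1 and Col5a1 differed in opposite directions between replicates 2 and 3. The lysyl oxidases Lox and Loxl1 had their lowest medians in replicate 3. Lox had medians of 13.1, 10.4 and 2.15 CPM in replicates 1, 2 and 3. It was called with all 18 libraries (adjusted p = 0.0364 by edgeR), not in the 16 (adjusted p = 0.0613), and in 3 of the 18 leave-outs. Loxl1 had 5.31 to 23.9 CPM in replicate 3, against 22.95 to 68.1 CPM in replicate 1 and 34.7 to 60.7 CPM in replicate 2. Its adjusted p was 0.00285 by edgeR in the 16 libraries. With all 18 libraries Loxl1 was not called (adjusted p = 0.0716 by edgeR), and it was called in 2 of the 18 leave-outs.

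Other genes also moved with the replicate number. Gfap had 67.6 to 175.9 CPM in the 4 typical libraries of replicate 1, 387.3 to 554.3 CPM in replicate 2 and 1245 to 1963 CPM in replicate 3, in the order of Col3a1. The 10 microglia and macrophage markers, led by Lyz2, summed to 2.91 to 62.6 CPM in replicate 1, 91.4 to 404.5 CPM in replicate 2 and 2.66 to 13.2 CPM in replicate 3, with no marker at 0 throughout. The fibroblast and meningeal markers summed to 197.4 to 403.4 CPM in replicate 1, 236.5 to 510.8 CPM in replicate 2 and 199.3 to 337.9 CPM in replicate 3, and these ranges overlapped. Their part in the difference between replicate numbers was not tested.

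**Figure D4:**
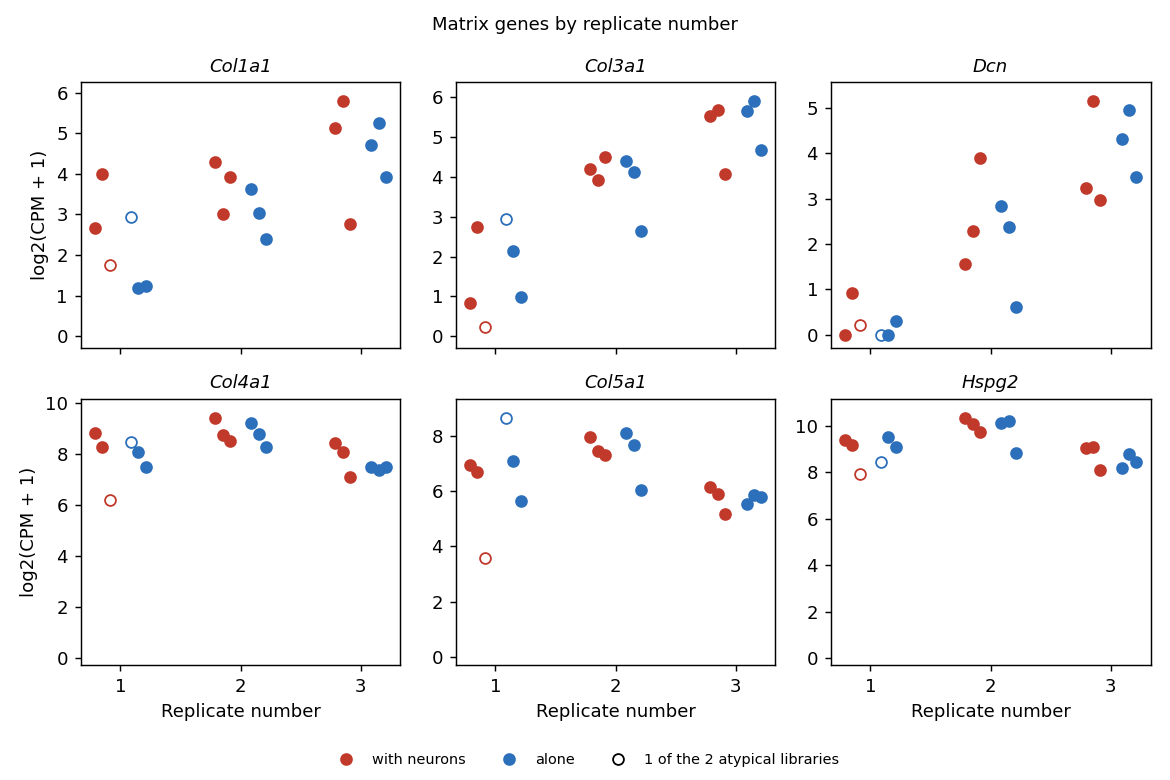
Level of 6 matrix genes as log2(CPM + 1) by replicate number, each point 1 library, ordered from day 2 to day 7 within each kind of culture; red points are co-cultures with neurons, blue points astrocytes alone, open points the 2 libraries that stood apart. Col1a1, Col3a1 and Dcn are highest in replicate 3, and Col4a1, Col5a1 and Hspg2 have their highest medians in replicate 2.

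The upstream sequences of 4 members, Col3a1 for the first pattern, Col5a1 and Hspg2 for the second and Col1a2 as the gene separated by day in both kinds of culture, show how unlike these starts are. They are the 250 bases before the start of each gene, on the + strand, 5′ to 3′, from RefSeq on build GRCm38.p6, which held such a window for 25 of the 39 members. Capitals mark matches to the TATA box TATAAA, the CCAAT box CCAAT and the GC box GGGCGG, each searched on both strands (GGGCGG reads CCGCCC on the other strand).
Col3a1, chr1:45311288-45311537: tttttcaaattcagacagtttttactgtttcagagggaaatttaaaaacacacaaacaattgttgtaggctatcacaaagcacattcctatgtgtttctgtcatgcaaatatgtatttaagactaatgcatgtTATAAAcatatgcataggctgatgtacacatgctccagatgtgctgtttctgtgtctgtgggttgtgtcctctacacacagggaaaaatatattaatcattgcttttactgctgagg
Col1a2, chr6:4505368-4505617: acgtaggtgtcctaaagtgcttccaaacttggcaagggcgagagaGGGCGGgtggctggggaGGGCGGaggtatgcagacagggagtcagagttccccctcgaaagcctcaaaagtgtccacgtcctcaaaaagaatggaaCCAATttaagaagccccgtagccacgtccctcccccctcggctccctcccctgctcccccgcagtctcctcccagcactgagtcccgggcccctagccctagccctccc
Col5a1, chr2:27886175-27886424: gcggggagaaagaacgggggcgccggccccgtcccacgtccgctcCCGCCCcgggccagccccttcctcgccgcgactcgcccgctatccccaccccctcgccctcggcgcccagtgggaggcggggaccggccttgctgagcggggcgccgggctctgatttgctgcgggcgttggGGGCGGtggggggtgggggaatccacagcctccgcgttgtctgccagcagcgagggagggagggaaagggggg
Hspg2, chr4:137468553-137468802: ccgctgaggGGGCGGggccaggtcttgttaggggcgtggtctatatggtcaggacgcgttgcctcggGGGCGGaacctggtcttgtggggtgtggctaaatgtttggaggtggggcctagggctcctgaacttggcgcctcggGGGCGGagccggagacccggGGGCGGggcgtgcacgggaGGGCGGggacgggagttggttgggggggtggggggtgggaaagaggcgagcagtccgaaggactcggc
The Col3a1 window was 35.2% G and C and held 1 TATA box and 0 GC boxes. That of Col1a2 was 62% G and C, with 2 GC boxes and 1 CCAAT box, that of Col5a1 76.4%, with 2 GC boxes, and that of Hspg2 70%, with 5 GC boxes. Of 32851 windows of this length in the same table, 12.4% held the TATA box, 33.8% the CCAAT box and 32.7% the GC box, so each of these matches is common, and a match is not evidence that a factor binds.

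Col4a1 and Col4a2, the 2 chains of the main type IV collagen trimer, lie head to head on chromosome 8 and start from the same stretch of DNA. In RefSeq on GRCm38.p6 their gene spans overlap by 85 bases (listed as a gap of -85), and the starts used for the upstream windows by 22 bases. Their levels kept close to a fixed proportion. The CPM ratio of Col4a1 to Col4a2 ran from 1.69 to 3.34 (median 2.45) in the 16 libraries, a span of 1.98-fold, while each gene alone spanned 4.91-fold and 4.57-fold. Col3a1 and Col5a2, neighbours on chromosome 1 at 24624 bases, had a ratio that spanned 141.3-fold in the same libraries. Alone, Col3a1 spanned 75.7-fold and Col5a2 3.16-fold, so a wide ratio was given by these unequal spans. Whether the shared start holds the ratio of Col4a1 to Col4a2 was not tested. Since the strand setting of the counting is not known here, reads in the overlap cannot be assigned to 1 of the genes. Both genes were lower at day 7 than at day 2 in the co-culture of every replicate number: Col4a1 had 72.5, 365.7 and 136.7 CPM at day 7, against 454.3, 671 and 338.4 CPM at day 2, and Col4a2 had 55.1, 143.4 and 51.8 CPM, against 202, 209.8 and 133.7 CPM. With the 2 atypical libraries left out and the replicate number in the model, their log2 fold changes were -1.12 (SE 0.29, adjusted p = 0.457 by edgeR) and -1.001 (SE 0.27, adjusted p = 0.531).

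**Figure D5:**
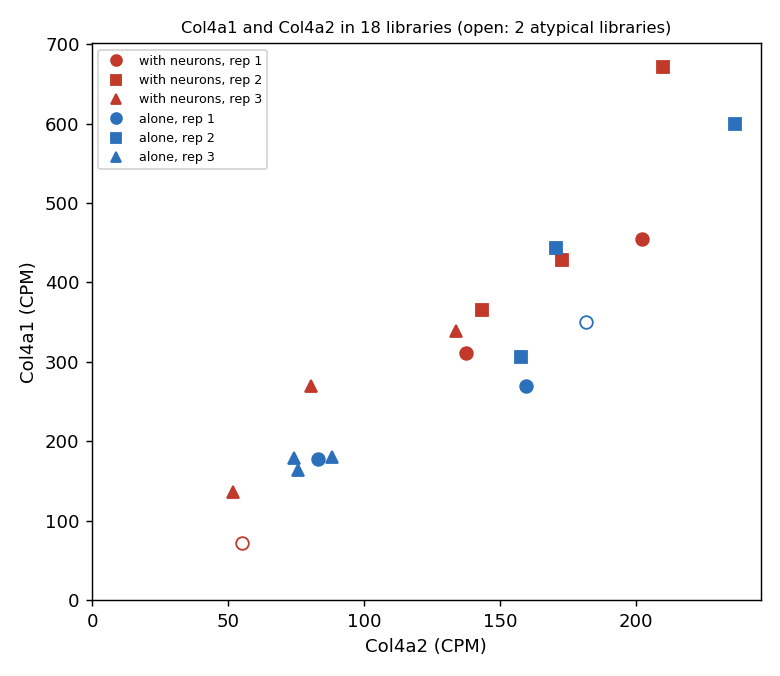
Col4a1 against Col4a2, both in CPM, in 18 libraries; colour gives the kind of culture, the marker shape the replicate number, and open markers the 2 libraries that stood apart. Points lie near a line through the origin, with replicate 2 (squares) at the high end of both axes and most of replicate 3 (triangles) at the low end.

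Genes that build, bind and cut the matrix were also without a call in edgeR, in any contrast. Of 16 genes for collagen assembly, which modify, fold and trim the chains, 14 were fitted higher in co-cultures on average over days, against 52.6% of all genes. Their median log2 fold change was 0.18, against 0.02 over all genes. The 3 with the smallest p were Plod3, a lysyl hydroxylase (0.50, SE 0.22, adjusted p = 0.982 by edgeR), P4hb, a subunit of prolyl hydroxylase that also forms disulfide bonds (0.38, SE 0.19, adjusted p = 0.982), and P4ha2, a catalytic subunit of that enzyme (0.58, SE 0.34, adjusted p = 0.982). Of 17 matrix receptors, integrins and discoidin receptors among them, 14 were fitted lower at day 7 than at day 2 in co-cultures (median -0.44). In astrocytes alone 12 were lower (median -0.16). Of all genes tested, 48.8% were lower in co-cultures and 49% in astrocytes alone. On average over days 12 of the 17 were fitted higher in co-cultures (median 0.10). The smallest p belonged to Itgb3, an integrin beta chain (-1.68, SE 0.84), Itga11, a collagen-binding integrin chain (-1.59, SE 0.91), and Ddr1, a receptor kinase that binds collagen (0.34, SE 0.25), each with an adjusted p of 0.982 by edgeR. Of 11 proteases and inhibitors, 7 were fitted lower at day 7 in co-cultures (median -0.07) and 8 in astrocytes alone (median -0.74). On average over days 7 of the 11 were fitted higher in co-cultures (median 0.12), and the smallest p belonged to the inhibitor genes Timp4 (-1.41, SE 0.95) and Timp1 (0.80, SE 0.59) and to Ctsk, a protease of collagen (-1.41, SE 1.04), again with an adjusted p of 0.982. With 16 libraries and the replicate number in the model, 13 assembly genes, 10 receptors and 8 proteases and inhibitors were higher on average. The medians were 0.17, 0.07 and 0.12, and 43.6% of all genes were higher. At day 7 in co-cultures, 15 receptors (median -0.31) and 5 proteases and inhibitors (median 0.02) were lower, against 45.2% of all genes. In astrocytes alone 12 (-0.20) and 7 (-0.56) were lower, against 46.8%.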

How the data were processed

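The authors deposited read counts per gene (Entrez IDs) for 18 libraries. Reads were counted on build mm9 with Subread and featureCounts, per the submitters' processing notes. Their versions, the strand setting and any filter are not given in the sources used. Total RNA was depleted of ribosomal RNA and made into SMARTer low-input libraries, per the labels' protocols. A further 17 columns of correlations were not used. Symbols came from RefSeq, and sequences and neighbours from RefSeq on GRCm38.p6; exon lengths came from GENCODE M21 and enter only values per kilobase. Members and gene lists were chosen with earlier results of these data known, and any member may be named: those with the largest spread of group means, neighbouring genes and called members with values per library. From the other lists the 3 smallest p on average over days are named, and of marker genes those at 0 or highest in a list. Values of members whose groups did not overlap or whose unadjusted p was under 0.05 were added after seeing the data.

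The counts were fitted in R 4.3.3 with edgeR 4.0.16 (glmQLFit, glmQLFTest): 6 group means over 18 libraries, TMM scaling, filterByExpr by group (16539 genes tested, 17092 in 16 libraries), Benjamini-Hochberg adjusted p under 0.05. CPM values use the TMM-scaled library sizes, and log2 CPM a prior count of 2. SE is the log2 fold change over the square root of F. The test between replicate numbers was chosen after seeing the data. Libraries of one replicate number have one date in the labels, and within the 9 pairs the deviations from group means had correlations of 0.108 to 0.469. Replicates within a group differed by more than sampling noise. Alternatives were a replicate block, DESeq2 1.42.0, limma 3.58.1 voom, other scalings, no filter and left-out libraries. The script was tested on simulated data.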

Additional observations from a re-analysis of the deposited data

How the results depend on the processing

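Over 29 other settings, 27 to 34 of 39 members were fitted lower at day 7 than at day 2 in co-cultures (median log2 fold change -1.37 to -0.56) and 28 to 36 in astrocytes alone (-1.003 to -0.28). The member medians of co-culture against alone changed sign at day 7 (-0.63 to 0.28) and on average (-0.15 to 0.17), not at day 2 (0.05 to 0.30) or day 4 (0.01 to 0.21). DESeq2 called 22 genes at day 2, 5 at day 7, 242 for day 7 against day 2 in co-cultures, 3 in astrocytes alone and 3 for the difference between them; its 1 called member, at day 7 and for day 7 against day 2 in co-cultures, was Fbln1. limma voom called 0 members. The replicate block alone called 1 gene at day 7 and 1 for day 7 against day 2 in co-cultures. With the block and 16 libraries, 16 genes were called at day 2, 18 at day 7, 17 for day 7 against day 2 in co-cultures, 17 in astrocytes alone and 23 for the difference; the block changed no call of a member. Leaving out 1 library or replicate number gave 0 to 1 genes for the difference and 0 in the 6 other comparisons. For the difference between replicate numbers, 1526 genes were called in 16 libraries, and leave-outs gave 156 to 1630 genes and 0 to 16 members. The cause of these differences was not tested. Genes with few reads (Mgp, Lum, Col15a1, Postn, Col6a2, Col6a3) have fold changes too uncertain to rank.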
